A study of Mus musculus with 4 samples.

Results

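Macrophage-rich spots outside the interferon zone at day 3 after injury were chosen from the spatial transcriptome by their own measured RNA, and they numbered 284 of the 3029 spots of that section and of the 10835 spots of the series. The rule first kept spots with at least 2000 UMIs (unique molecular identifiers, each standing for 1 captured RNA molecule), which left 3020 spots. It then set aside the 182 spots at or above the 94th percentile of the summed share of 6 interferon-stimulated genes (Rsad2, Cmpk2, Ifit1, Ifit2, Ifit3 and Isg15). Among the 2838 retained spots, those at or above the 90th percentile of the summed share of C1qa, C1qb, C1qc, Adgre1 and Ms4a7 became the macrophage-rich spots, so these 11 genes define the group and their values below are a description.

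The series holds 4 Visium sections of tibial muscle, all from transgenic Nse-Bmp4 animals of the C57BL/6 strain, 6-8 weeks old, in which a neuron-specific enolase promoter drives Bmp4 and cardiotoxin injury leads to heterotopic ossification, bone formed inside soft tissue. One section was uninjured (HO-day 0) and the others were taken at 1, 3 and 7 days after injury (HO-day 1, HO-day 3 and HO-day 7), and every section carried the transgene. The labels speak of 3 tibial muscles mixed for each group, which the paper states for its single-cell libraries and not for its sections. Which muscle a section shows is not given, and the labels do not tie a spot to an animal. There was 1 section per day and no replicate, so no comparison below has a test, 95% intervals cover counting error alone, and section and day cannot be told apart.

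Macrophages enter damaged muscle as monocytes, clear dead fibres and lipid-rich debris through the lysosome, and signal to muscle stem cells and to the mesenchymal stem cells (MSC) that build connective tissue. C1qa, C1qb and C1qc encode the chains of complement C1q, which tissue macrophages make. Adgre1 encodes F4/80 and Ms4a7 a membrane protein of macrophages. The study asked where immune cells and MSC share spots as ossification begins. A spot is a small area that holds RNA from several cells, so a high share of macrophage RNA there can come from more macrophages or from more RNA per macrophage, and these cannot be told apart.

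Regulatory sequence of a few genes from the results is shown first, since PU.1, the transcription factor that macrophages depend on, and the interferon-stimulated response element (ISRE) are both read from short motifs. The genes were picked by hand and every promoter shown holds a match, so they do not stand for the leading genes as a set. The 250 bases before the RefSeq start were searched on both strands for GAGGAAGT, a PU.1 motif, and for the ISRE core, which is TTTC followed by any 2 bases and TTTC again, and matches stand in capitals, printed on the strand of the gene. The sequences are from RefSeq on GRCm38.p6. Spp1 (chr5:104434861-104435110, plus strand), Ctss (chr3:95526536-95526785, plus strand), Pf4 (chr5:90772185-90772434, plus strand) and Selenop (chr15:3270517-3270766, plus strand) were all more abundant in the macrophage-rich spots, and Cxcl10 (chr5:92348890-92349139, minus strand) is a chemokine gene that was far lower there than in the interferon spots.
Spp1: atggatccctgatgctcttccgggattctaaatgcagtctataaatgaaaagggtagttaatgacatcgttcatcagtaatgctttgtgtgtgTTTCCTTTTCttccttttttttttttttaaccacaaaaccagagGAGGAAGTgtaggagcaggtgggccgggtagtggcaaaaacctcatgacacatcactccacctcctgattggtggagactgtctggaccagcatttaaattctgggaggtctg
Ctss: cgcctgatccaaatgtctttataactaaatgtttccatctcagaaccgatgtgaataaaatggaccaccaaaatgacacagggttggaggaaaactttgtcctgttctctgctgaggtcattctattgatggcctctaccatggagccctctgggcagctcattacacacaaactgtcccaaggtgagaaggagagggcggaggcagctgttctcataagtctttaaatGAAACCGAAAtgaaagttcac
Pf4: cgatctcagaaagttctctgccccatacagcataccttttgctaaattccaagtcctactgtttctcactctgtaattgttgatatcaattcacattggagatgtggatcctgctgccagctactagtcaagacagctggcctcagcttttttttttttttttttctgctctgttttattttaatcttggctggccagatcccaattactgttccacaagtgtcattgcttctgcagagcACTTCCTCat
Selenop: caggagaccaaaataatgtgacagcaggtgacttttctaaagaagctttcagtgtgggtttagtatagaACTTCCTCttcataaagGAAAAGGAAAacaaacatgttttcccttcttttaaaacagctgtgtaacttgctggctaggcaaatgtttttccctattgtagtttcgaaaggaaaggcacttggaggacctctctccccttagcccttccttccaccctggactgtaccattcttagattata
Cxcl10: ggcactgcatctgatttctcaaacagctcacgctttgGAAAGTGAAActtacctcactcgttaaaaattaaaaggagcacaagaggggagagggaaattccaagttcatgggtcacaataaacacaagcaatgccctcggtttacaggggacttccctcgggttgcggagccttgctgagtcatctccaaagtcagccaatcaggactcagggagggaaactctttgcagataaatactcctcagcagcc
Of 27025 promoters of this length, 660 (2.44%) held the PU.1 motif and 821 (3.04%) the ISRE core. Spp1 and Selenop held both, Pf4 held the PU.1 motif 10 to 3 bases before its start, and Ctss held an ISRE core 21 to 12 bases before its start. Among the lists used below, the PU.1 motif was in 3 of the 10 matched promoters of resident macrophage genes and 3 of 8 of neutrophil genes, but in 0 of 9 of macrophage identity, 1 of 13 of lipid handling, 1 of 11 of lysosome and 0 of 5 of CC chemokine genes. The ISRE core was in 4 of the 9 matched promoters of interferon genes outside the rule and in 2 of 9 of macrophage identity genes. An E-box, CACGTG, was also searched and was in 1634 promoters (6.05%), 3 of 11 of lysosome genes and 3 of 7 of dendritic cell genes among them. A match describes the letters in this window and is no measured binding.

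The rule's own values placed the macrophage-rich spots between 4917 and 10064 CPM (UMIs per 1000000 UMIs) of the 5 markers, with a median of 5849. The spots just inside the limit stood at 4917, 4924 and 4925 CPM, and those just outside at 4916.8, 4916.5 and 4915.9, so the limit cuts a continuous range. The other 2554 retained spots had a median of 1545. Choosing on Adgre1 and Ms4a7 alone shared 196 of 284 spots (69.0%), and choosing on the C1q chains alone shared 254 (89.4%). When each UMI was dealt at random to 1 of 2 equal sets and spots were chosen on the first set, 229 of the 284 (80.6%) were chosen again, and the 5 markers in the unused set stood at 6077 CPM against 6329 in the choosing set.

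Depth and muscle RNA moved with the rule. Macrophage-rich spots held between 2276 and 62861 UMIs with a median of 26042.5, against a median of 15094 in the other retained spots. Thinned to 2000 UMIs each, they showed 1178 genes per spot against 922. The 15 genes of adult myofibres made up a median of 1.36% of UMIs in the macrophage-rich spots (0.381% to 17.4%) and 13.5% in the other retained spots, and mitochondrial genes 2.78% against 13.7% of all UMIs. Of the barcodes, which mark fixed positions on the slide, 1341 recurred in all 4 sections, and 17 barcodes of macrophage-rich spots recurred among the day 7 spots chosen by the same rule.

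Macrophage genes that the rule did not use were higher as well. All 15 genes of the macrophage identity list, including Cd68, Csf1r, Lyz2 and Mpeg1, were higher in macrophage-rich than in other retained spots, with a median log2 ratio of 1.61 between summed CPM. Of all genes counted in this contrast, 42.4% were higher. Against low-myofibre spots, described below, 9 of the 15 were higher, and 1 of 15 with spots chosen on Adgre1 and Ms4a7 alone. Here and below, higher and lower mean a log2 ratio past 0.58 either way (1.5-fold) among genes with at least 5 CPM in the section. Per spot the list ran from 2334 to 31316 CPM with a median of 17137 in the macrophage-rich spots, and 99.3% of them lay over the median of the other retained spots, 3132 CPM. The ranges overlapped, since 5 spots lay over the highest of the others. Lists of other blood cells differed. Red cell genes went the other way (160 against 605 CPM) and mast cell genes were level (8.95 against 9.14 CPM). RNA of neutrophils, T and NK cells, dendritic cells and B cells (37.9 against 25.0 CPM) moved with the identity list at low levels. Neutrophil genes summed to 118.8 against 47.4 CPM, with 4 of 4 counted genes higher (S100a8, S100a9, Csf3r and Il1r2) and the defining Ly6g at 0 UMIs in every retained spot. T and NK cell genes summed to 30.0 against 12.2 CPM, with Gzma, the 1 gene counted, higher and 8 UMIs of Cd3e, and dendritic cell genes summed to 55.1 against 28.6 CPM, with 2 of 2 counted higher. The part of these cells in the results was not tested. None of the 8 endothelial genes was higher.

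The background of this contrast was wide. Of 10352 genes counted, 42.4% were higher and 10.3% lower in macrophage-rich spots than in other retained spots, and the median gene stood at a log2 ratio of 0.48. TMM and DESeq2 scaling moved every ratio down by about that amount (-0.50 and -0.52), and with TMM the split became 1190 genes higher and 2137 lower in place of 4388 and 1071. Ratios in this contrast are therefore read against 0.48.

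The highest ratio among the named genes was that of Cd5l. Cd5l, a secreted scavenger protein of macrophages, reached 50.1 CPM against 10.2 (log2 ratio 2.30, 95% interval 2.10 to 2.50). Spp1, which encodes osteopontin, ran per spot from 0 to 14040 CPM with a median of 1565, against a median of 189 and a highest value of 11455 in the other retained spots. Its summed level was 2496 against 604 CPM (log2 ratio 2.05, 2.02 to 2.07), and 92.3% of macrophage-rich spots lay over the median of the others although the ranges overlapped almost fully.

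Gpnmb, a glycoprotein of lipid-laden macrophages, stood at 807 against 205 CPM and Ctss, a lysosomal protease that also cuts the invariant chain of MHC class II, at 2743 against 706 CPM. Ctss was over the highest of the other retained spots in 21 macrophage-rich spots. Among the other leaders, Pik3ap1, Bcl2a1b, Otulinl, Ms4a4c, Ms4a6d and Clec12a had log2 ratios between 1.82 and 1.92. Sfrp2, a secreted modulator of Wnt signalling made by fibroblasts, stood among them at 262 against 70.6 CPM (1.89). The lowest 8 genes included genes of mature fibres, Mylk4 (-3.80), Slc2a4, the insulin-responsive glucose transporter (-3.27), and Ckmt2, mitochondrial creatine kinase (-3.09).

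By function, lysosome genes were higher in 16 of 16 members of their list (median log2 ratio 1.37), lipid handling genes in 13 of 16 (1.54), Fc receptor genes in 5 of 5 (1.60), MHC class II genes in 7 of 7 (0.98) and mitosis genes in 11 of 12 (1.10). Fibrous matrix genes such as Col1a1 and Col3a1 were higher in 8 of 12 (0.73), which TMM scaling reduced to 0 of 12. Recruited monocyte genes were higher in 9 of 11 counted (1.02) and resident macrophage genes in 9 of 11 (1.09). TMM scaling left 2 MHC class II, 6 mitosis and 5 recruited monocyte genes higher, and DESeq2 scaling left 5 resident macrophage genes.

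**Figure D1:**
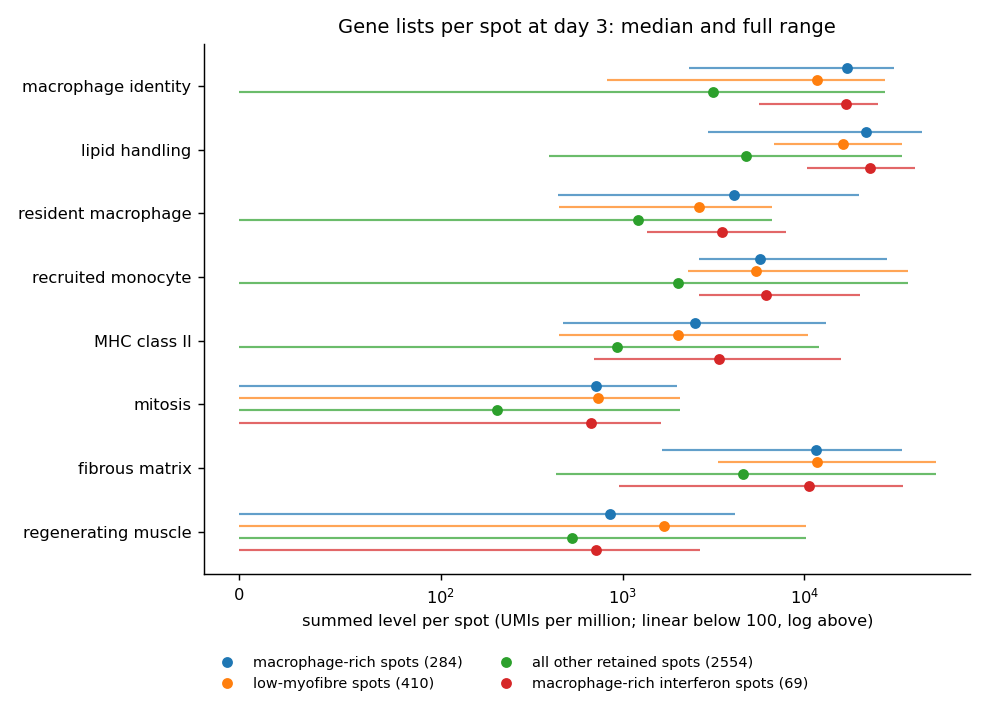
Summed level of 8 gene lists per spot in CPM (symmetric log axis), with the dot at the median and the line from the lowest to the highest spot, for 4 groups of day 3 spots. Medians of the macrophage lists were highest in both macrophage-rich groups, while mitosis and fibrous matrix medians were alike in macrophage-rich and low-myofibre spots (712 and 728, and 11567 and 11704 CPM).

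Across deciles of the retained spots ordered by the marker share, the lists took different courses. Lipid handling genes rose from 2525 CPM in the lowest decile to 17102 in the ninth and 23166 in the macrophage-rich decile, and lysosome genes from 4508 to 20401 and 27566. Resident macrophage genes went from 715 to 2958 and 4229 CPM.

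Other lists rose less into the top decile, or fell. Fibrous matrix genes stood at 11647, 12127 and 13152 CPM in the eighth, ninth and top deciles, mitosis genes at 571, 734 and 768, and recruited monocyte genes at 4621, 5540 and 5795. Regenerating muscle genes, the embryonic myosins and fusion factors of new fibres, peaked at 2149 CPM in the seventh decile and stood at 1080 in the macrophage-rich decile. Endothelial genes lay between 210 and 289 CPM in every decile, lowest in the top one.

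**Figure D2:**
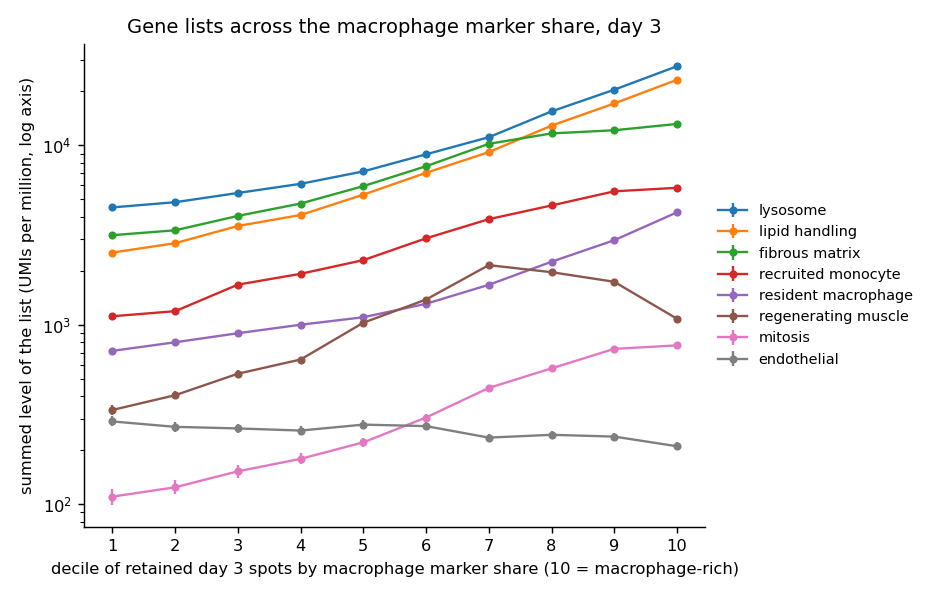
Summed level of 8 gene lists in CPM (log axis) by decile of the 2838 retained day 3 spots ordered by macrophage marker share, with 95% Poisson intervals; decile 10 is the 284 macrophage-rich spots. Lysosome and lipid handling genes climbed to the top decile, fibrous matrix and mitosis genes rose less into decile 10, and regenerating muscle genes fell from 2149 in decile 7 to 1080 in decile 10.

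Because muscle RNA differed so widely, the macrophage-rich spots were also set against the 410 other retained spots whose adult myofibre share was no higher than the 90th percentile of that share among macrophage-rich spots, a comparison chosen after the data had been seen. These low-myofibre spots had nearly the same depth (median 25457.5 UMIs) and the same number of genes at 2000 UMIs (1176), and the median gene stood at a log2 ratio of 0.0006. Their rule markers stood at 3767 CPM against 6219 (log2 ratio 0.72), so they too held macrophage RNA. Of 10351 genes, 2.94% were higher and 4.72% lower in the macrophage-rich spots.

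Resident macrophage genes were higher in 8 of 11 counted (median log2 ratio 0.77). Per 1000 UMIs of the rule markers their sum was alike, 680.0 in macrophage-rich and 687 in low-myofibre spots. The spots were chosen on these markers (6219 against 3767 CPM), so a list that rises less than they do comes out lower on this scale. That limit holds for each such value against low-myofibre spots. Pf4, a platelet-type chemokine that resident macrophages also make, ran per spot from 93.5 to 3870 CPM with a median of 1079, against a median of 597 in low-myofibre spots (summed log2 ratio 0.77, 0.72 to 0.81). Selenop, a selenium carrier, stood at 1861 against 1144 CPM (0.70), Cbr2, a carbonyl reductase, at 215 against 122 (0.82), and the folate receptor gene Folr2 at 176 against 109 (0.69). For each the per-spot ranges overlapped.

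Lyve1 (1.58), Cd163 (1.21) and Retnla (1.82), a hyaluronan receptor, the haemoglobin scavenger receptor and a secreted product of alternatively activated macrophages, had larger ratios but few UMIs, 180, 171 and 227. Retnla had no UMI in 256 of the 284 spots. Of these UMIs, 41.7%, 56.7% and 72.2% lay in the 28 macrophage-rich spots with the most adipocyte RNA, described below. Without those spots Cd163 and Retnla stood at log2 ratios of 0.08 and 0.05 and Lyve1 at 0.88, and 5 of 11 resident genes were higher in place of 8. This removal was one-sided, since low-myofibre spots kept theirs, with up to 28783 CPM of the adipocyte list. With spots chosen on Adgre1 and Ms4a7 alone 1 of 11 was higher, and with the 75th percentile of the myofibre share as the limit 5.

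Recruited monocyte genes moved little. Of 11 counted, 2 were higher, Ly6c2, the Ly6C antigen of inflammatory monocytes (0.75), and Itga4, an integrin of leukocyte adhesion (0.58), and the list's median log2 ratio was 0.04. None was higher with Adgre1 and Ms4a7 alone, with separate random sets of UMIs or at the 75th percentile of the myofibre share. Ccr2, the receptor that draws monocytes from blood, stood at 210 against 162 CPM (0.37) and Fn1 at 1152 against 1123 (0.04). Per spot the recruited list had a median of 5725 CPM in macrophage-rich and 5448 in low-myofibre spots, and 56.3% of macrophage-rich spots lay over the latter. S100a6 and Fn1, with 2794 and 1152 CPM, are also made by fibroblasts and take a large share of this sum. Per 1000 UMIs of the rule markers, on which the spots were chosen, the list summed to 932 in macrophage-rich and 1506 in low-myofibre spots.

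General macrophage genes were higher in 9 of 15, with a median log2 ratio of 0.62, among them Ctss (0.73), Tyrobp, an adaptor of activating receptors (0.68), and Spi1, which encodes PU.1 (0.66). With the 75th percentile of the myofibre share as the limit in place of the 90th, or with Adgre1 and Ms4a7 alone as the score, 1 of 15 was higher, with the choice and the values on separate random sets of UMIs 5, and on the mean of per-spot CPM 4. Per 1000 UMIs of the rule markers, on which the spots were chosen, the list summed to 2986 in macrophage-rich and 3138 in low-myofibre spots.

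Lipid handling genes were higher in 5 of 16. Gpnmb stood at 807 against 493 CPM (0.71), Trem2, a lipid-sensing receptor of phagocytes, at 439 against 273 (0.68), and Apoe, the lipid carrier, at 13006 against 8496 (0.61), while Lipa and Abcg1, a lysosomal lipase and a cholesterol exporter, stood at 0.73 and 0.65. Spp1 (0.50) did not pass the limit here, and Lgals3 (0.17), Cd36 (0.12) and Lpl (0.06) lay near 0. Lysosome genes were higher in 4 of 16 (median 0.53), among them Ctsc, a protease, and the genes of progranulin and prosaposin, Grn and Psap. Per 1000 UMIs of the rule markers both lists were lower in macrophage-rich than in low-myofibre spots, lipid handling with 3725 against 4303 and lysosome with 4432 against 5074. The choice of spots on these markers lowers such values for any list that rises less than the markers.

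Of interferon genes that the rule did not use, 8 of 12 counted were higher (0.72), although the spots with the highest interferon share had been set aside. The median fell to 0.23 with spots chosen on Adgre1 and Ms4a7 alone. Per 1000 UMIs of the rule markers, on which the spots were chosen, these genes summed to 146 in macrophage-rich and 155 in low-myofibre spots. Irf7, the master factor of the interferon response, reached 154 against 88.0 CPM (0.80), and Oasl2 stood at 0.73. The rule's own 6 interferon genes summed to 82.9 against 55.1 CPM. Fc receptor genes were higher in 3 of 5 (0.63), led by Fcgr4 (0.73), and MHC class II genes in 0 of 7 (0.32). Per 1000 UMIs of the rule markers the Fc receptor sum was 401 against 434. Among CC chemokines 2 of 9 were higher, Ccl8 with 545 against 295 CPM (0.88) and Ccl6 (0.59), whereas Ccl2 stood at 199 against 227.

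The lists of dividing cells and of connective tissue showed no gene past the limit. Mitosis genes had a median log2 ratio of -0.01 and S phase genes of -0.02, each with 0 of 12 genes higher or lower. Mki67 stood at 63.4 against 68.9 CPM and Top2a at 74.1 against 78.4. Fibrous matrix genes had a median of -0.03 with 0 of 12 past the limit, and Col1a1 stood at 2067 against 2102 CPM. The 6 MSC markers of the study also had none past the limit (0.07), with Pdgfra at 57.3 against 57.1 CPM. BMP signalling genes, including the BMP targets Id1 (-0.31) and Id3 (-0.10), had a median of -0.05.

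Regenerating muscle genes were lower in 10 of 12 counted, with a median log2 ratio of -1.32. Myh3, embryonic myosin, ran per spot from 0 to 584 CPM with a median of 23.8 in the macrophage-rich spots, and from 0 to 3798 with a median of 80.5 in low-myofibre spots. Its summed level was 55.8 against 236 CPM (-2.08, -2.23 to -1.93). Myog, the factor of myoblast differentiation, stood at 208 against 496 CPM (-1.25), and the fusion genes Mymk and Mymx at -1.49 and -1.36. Genes of earlier myogenic cells were nearer: Pax7, the satellite cell factor, stood at -0.14, Myf5 at -0.28 and Myod1 at -0.41.

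The lowest 8 genes were all of muscle, with Actc1 (-1.89), Myh7 (-1.71), Casq2 (-1.60), Myl4 (-1.51), Tnnt1 (-1.50) and Tnnc1 (-1.48) besides Myh3 and Mymk. The median adult myofibre share was 1.36% in the macrophage-rich and 2.16% in the low-myofibre spots, and its part in these ratios was not tested. With the 75th percentile as the limit on that share, 9 of 12 regenerating muscle genes were still lower, and Myh7 turned to 0.35.

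The genes with the largest ratios upward were Pi16, a marker of adventitial fibroblasts (68.4 against 18.9 CPM, 1.85), and Myoc (1.43), followed by Cd5l (50.1 against 23.4 CPM, 1.10). Npl, Pltp, Hpse, AB124611 and Clec10a, a lectin of alternatively activated macrophages, lay between 0.78 and 0.88. Pi16 had no UMI in 187 of the 284 macrophage-rich spots and Cd5l none in 117. Pi16 and Myoc fell to -0.37 and -0.48 when spots were chosen on Adgre1 and Ms4a7 alone, and to 0.53 and -0.015 without the 28 spots rich in adipocyte RNA, described below. That removal left the low-myofibre spots as they were.

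**Figure D3:**
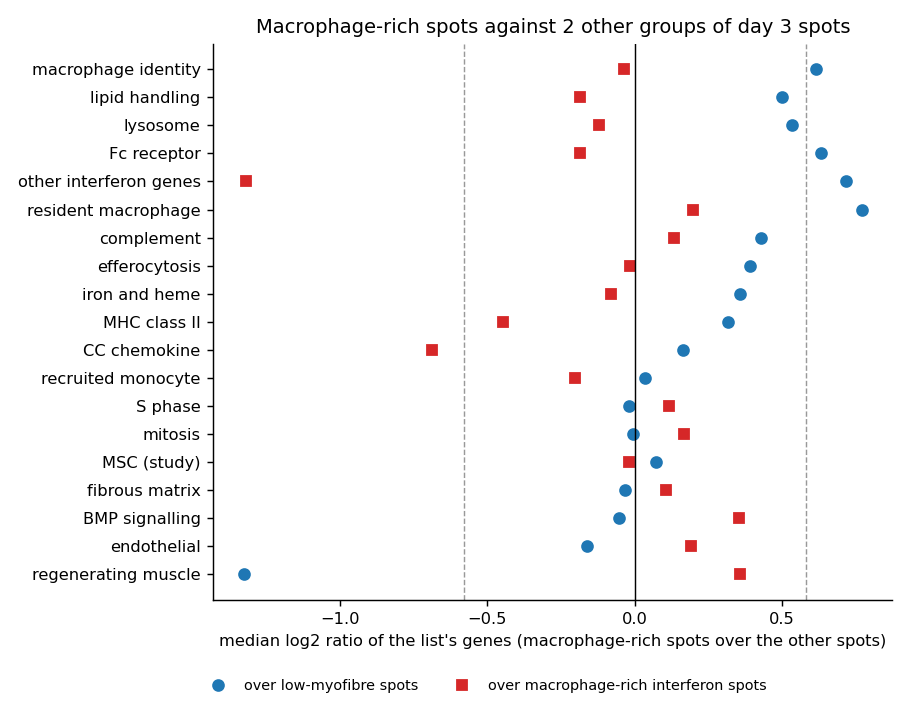
Median log2 ratio of the counted genes of 19 lists, macrophage-rich spots over low-myofibre spots (circles) and over macrophage-rich interferon spots (squares), with dashed lines at 0.58 either way. Against low-myofibre spots the resident list stood at 0.77 and regenerating muscle at -1.32; against interferon spots most lists lay near 0 apart from interferon genes and CC chemokines (-0.69).

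Among the macrophage-rich spots themselves, most genes were evenly spread. For the median of 3261 genes, 27.3% of UMIs lay in the 28 spots that held the most of that gene, and Apoe (22.3%) lay below this. C1qb (20.9%) did too, but the spots were chosen on it, and the part of the choice in its spread was not tested. Adgre1, also of the rule, stood at 24.6%, and Laptm5, outside the rule, at 19.7%. This share also depends on level, since counting error is smaller for abundant genes, so a low share does not by itself show evenness. Spread beyond counting error, as a coefficient of variation, was 0.23 for the median gene. A small number of genes stood far apart: 98.2% of Cfd and 91.4% of Hp UMIs lay in 28 spots, with Pi16 at 83.8%, Scd1 at 80.4%, Fmod at 78.6%, Comp at 76.7% and Thbs4 at 61.7%. Cfd, Scd1 and Hp are known from fat cells, and Fmod, Comp and Thbs4 from tendon.

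The 28 macrophage-rich spots with the most adipocyte RNA held between 936 and 26670 CPM of that list, and 5.57% of the group's UMIs. They held 96.4% of Cfd and 90.3% of Adipoq UMIs, but both genes are on the list that picked these spots, so those shares are a description of the choice. Pi16, which is not on the list, had 62.1% of its UMIs there. The rule markers of these spots stood at 6238 CPM, as high as in the whole group. Spp1 was low in them, with 1.24% of its UMIs there, while Ccl8 had 9.46%. These genes were named after their values had been seen. Where the 28 spots are left out, they are left out of the macrophage-rich group only.

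**Figure D4:**
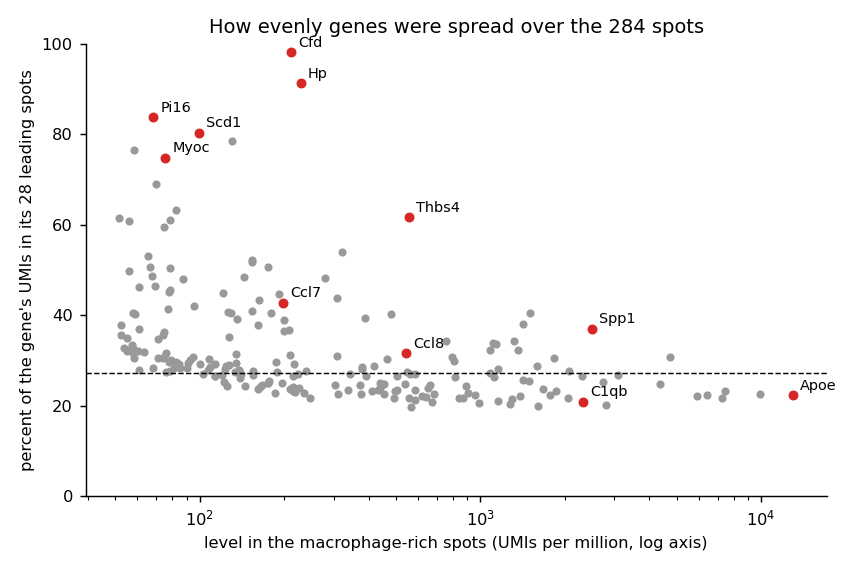
Percent of each gene's UMIs that lay in the 28 macrophage-rich spots holding the most of it, against its level in CPM (log axis), for list genes and the 40 most uneven genes; the dashed line marks the median gene (27.3%). Cfd, Hp, Pi16 and Scd1 lay over 80%, and Apoe and C1qb, a gene of the rule, under the line. Abundant genes carry less counting error, which lowers this share.

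Gene lists co-varied among the 284 spots after each was thinned to 2000 UMIs. These are descriptions over spots of 1 section, which share a library and spatial neighbours. Lysosome and lipid handling genes had a Spearman rho of 0.55, iron and heme genes had 0.50 with macrophage identity and 0.42 with lipid handling, and adult myofibre genes had -0.51 with iron and heme and -0.48 with lipid handling. Regenerating muscle and CC chemokine genes had -0.35. The original depth of the spot had 0.48 with macrophage identity and -0.32 with CC chemokines, with both lists taken after thinning.

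Macrophage-rich spots were then set against the 69 spots that met the same marker limit but had been set aside for their interferon share. Both groups had like depth (medians 26042.5 and 22215 UMIs), myofibre share (1.36% and 1.27%) and marker level (6219 and 6345 CPM). Of 10330 genes, 5.61% were higher and 3.32% lower in the macrophage-rich spots outside the zone. The 6 rule genes stood at 82.9 against 675 CPM, by construction, and 12 of 12 other interferon genes were lower (median -1.32), per spot from 0 to 3126 CPM (median 810) against 648 to 4936 (median 1679).

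CC chemokines were lower in 5 of 9 counted outside the zone, with a median log2 ratio of -0.69. Ccl2, the monocyte attractant, stood at 199 against 393 CPM (-0.98), Ccl7 at -1.24 and Ccl12 at -1.41, and Ccl4 was among the lowest 5 genes with 8.41 against 53.6 CPM (-2.67). Cxcl10, whose promoter is shown above, was the lowest with 10.9 against 118 CPM (-3.43, -3.82 to -3.05), and Usp18, Phf11b and Oasl1 lay between -1.97 and -1.80. Cd74, the invariant chain, and H2-Eb1 were the MHC class II genes past the limit (-0.64 and -0.67), and the list summed to 2776 against 4051 CPM.

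Recruited monocyte genes were lower in 3 of 11 counted, among them Ly6c2 (-0.94) and Plac8 (-1.26), and higher in 1, Hp, and the list summed to 5795 against 6169 CPM (-0.09). The Fc receptor genes Fcgr1 and Fcgr4 stood at -0.74 and -0.73. Macrophage identity (-0.04), lysosome (-0.12), mitosis (0.17) and fibrous matrix (0.10) had medians near 0. Cfd (2.26), Pi16 (2.09), Hp (1.61), Lrg1 (1.38) and Scd1 (1.19) had the largest ratios upward, yet without the 28 spots rich in adipocyte RNA Cfd, Hp and Scd1 turned to -2.45, -1.28 and -0.82, and Pi16 and Lrg1 fell to 0.77 and 0.42. Retnla and Cd163 (2.08 and 1.45) likewise stood at 0.32 and 0.33 without them. The interferon spots kept their adipocyte-rich spots, with up to 15109 CPM of that list. Cfd is on the list, so its fall was built into this one-sided removal.

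The same rule in the other sections chose 197 spots at day 0, 203 at day 1 and 278 at day 7, at far lower limits. The limit was 4917 CPM of the 5 markers at day 3, and 506, 1028 and 1721 at days 0, 1 and 7. Of the retained spots, 0 of 1964 at day 0, 0 of 2024 at day 1 and 11 of 2771 at day 7 (0.397%, 95% exact interval 0.198% to 0.709%) reached the day 3 limit. The median myofibre share in the chosen spots was 25.6%, 8.74% and 12.7% at days 0, 1 and 7 against 1.36% at day 3, and the median depth 20902, 5143 and 12937 UMIs, and their part in the comparisons between days was not tested.

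Against day 7, 24.1% of 10197 genes were higher and 23.6% lower in the day 3 spots, and the median gene stood at 0.06. Macrophage identity genes were higher in 15 of 15 (median log2 ratio 1.69), Fc receptor genes in 5 of 5 (2.34), lysosome genes in 14 of 16 (1.14), S phase genes in 11 of 12 (1.69) and mitosis genes in 11 of 11 counted (1.89). MHC class II genes were level, with 2776 CPM at day 3 and 2756 at day 7 and 1 of 6 higher. Spp1 stood at 2496 CPM at day 3 and 518 at day 7.

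Gal, which encodes the neuropeptide galanin, had 1370 UMIs against 8 (182.9 against 1.68 CPM, 6.77), but low-myofibre spots of day 3 held more of it (237 CPM). Cd5l (5.90), Chil3, a chitinase-like protein of monocytes and macrophages (5.40), Sirpb1c (4.04) and Ly6c2 (3.98) followed. Lower at day 3 were 9 of 9 chondrogenic, 9 of 12 fibrous matrix and 8 of 8 endothelial genes, with medians of -5.02, -1.15 and -1.32, and 4 of 7 osteoclast genes, whose median turned to 0.40 after thinning. Col2a1 and Acan, which build cartilage, had 2 and 1 UMIs at day 3 against 1076 and 783 at day 7, and Ibsp, a bone matrix gene, had 0 against 422.

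Scaled per UMI of the 5 rule markers, an alternative added after the data had been seen, lipid handling (-0.23) and lysosome genes (-0.13) had medians below 0, and MHC class II genes stood at -1.25, while macrophage identity (0.42), S phase (0.42) and mitosis genes (0.62) stood above.

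Against day 1, 36.2% of 10131 genes were higher and 10.7% lower in the day 3 spots, and the median gene stood at 0.36. TMM scaling moved the ratios by -0.32 and turned 3670 genes higher and 1083 lower into 2133 and 1805. Fibrous matrix genes were higher in 12 of 12 (median log2 ratio 2.69), mitosis genes in 11 of 11 (3.20), regenerating muscle genes in 10 of 10 counted (3.29), lipid handling genes in 12 of 16 (1.35) and MHC class II genes in 6 of 6 (1.17). Sfrp2 stood at 262 against 5.02 CPM, Postn, a matrix protein of fibroblasts, at 1111 against 34.3, and Ptx3 and Aspn at log2 ratios of 4.86 and 4.63. Sfrp1 had 495 UMIs against 0.

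Lower at day 3 than at day 1 were 5 of 8 CC chemokines (median -1.03), which summed to 2324 against 4862 CPM, and 3 of 3 counted neutrophil genes (-2.24), S100a8, S100a9 and Csf3r. Recruited monocyte genes were level (0.07), with Ccr2 at -0.52 and Ly6c2 at 0.62. Ppbp, a platelet chemokine, was the lowest (5 against 75 UMIs, -6.56), and Mylk4, 2310065F04Rik, Pvalb and Lmcd1, 4 genes of muscle tissue, followed. Per UMI of the rule markers, macrophage identity (-0.73), lipid handling (-0.52), lysosome (-0.67), MHC class II (-0.70) and recruited monocyte (-1.80) genes stood below their day 1 level.

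Within each section, chosen spots were also set against the other retained spots of that section. The rule markers themselves had log2 ratios of 2.55, 2.48, 1.49 and 1.94 at days 0, 1, 3 and 7. The choice thus separated spots least at day 3, and the contrasts are not alike in strength. Mitosis genes had log2 ratios of 0.001, 0.18, 1.07 and 0.56 at days 0, 1, 3 and 7, on their summed level, and lipid handling genes 1.00, 1.39, 1.49 and 1.63. Regenerating muscle genes had 0.02, -0.33, -0.24 and 1.74. At day 3 the median per spot ran the other way from this sum, 856 CPM in macrophage-rich and 527 in other retained spots, and 76.4% of macrophage-rich spots lay over the latter. The adult myofibre ratio was -0.14, -0.51, -2.64 and -0.61, largest in size at day 3. These differences between days rest on 1 section each and were not tested.

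**Figure D5:**
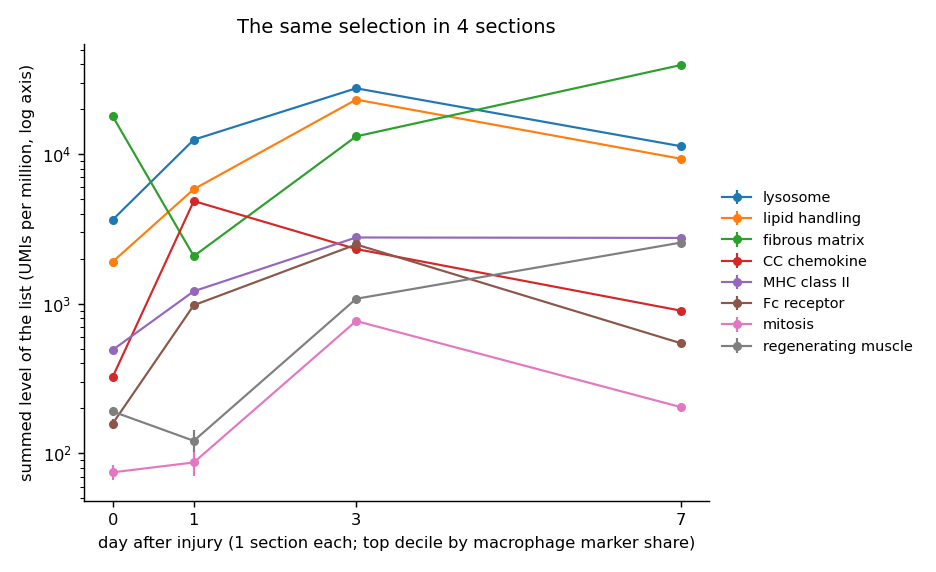
Summed level of 8 gene lists in CPM (log axis) in the spots chosen by the same rule at days 0, 1, 3 and 7 (197, 203, 284 and 278 spots, 1 section a day), with 95% Poisson intervals. Lysosome, lipid handling, Fc receptor and mitosis genes were highest at day 3, CC chemokines at day 1, and fibrous matrix genes at day 7 (39420 against 13152 CPM at day 3).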

How the data were processed

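Per the file headers, the authors ran Space Ranger 1.2.0, and the processing notes name mm10; the deposited matrices hold UMI counts per gene and spot, 32285 genes, with no normalization. Spot positions were not used here. Section totals ran from 16777832 to 56113066 UMIs. For each group of spots, gene counts were added up and scaled to the group's total (CPM). Intervals of 95% are exact Poisson for levels and exact binomial for ratios and cover counting error only, and a count under 3 UMIs was set to 3 in a ratio. With 1 section a day no test was run. Genes with at least 5 CPM over the section (or over the mean of 4 sections) were counted, and past a log2 ratio of 0.58 called. Named genes were the 12 highest and 8 lowest (5 and 5 in the comparisons with interferon spots and other days) with at least 50 CPM in either group, leaving out mitochondrial, haemoglobin and rule genes, besides genes of 39 lists. The spots, lists and comparisons were chosen with earlier results of these data known. Thinning drew 2000 UMIs per spot 10 times. Doublets were not called, since a spot holds several cells. Scripts ran in Python 3.11.15 (NumPy 2.4.6, SciPy 1.17.1), with scaling factors from edgeR 4.0.16 and DESeq2 1.42.0 in R 4.3.3, and were tested on simulated data. Alternatives covered the limits of the rule, its genes, scaling, thinning and the filter on low genes. A few genes of the lists and of the named genes are not reported here.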

Additional observations from a re-analysis of the deposited data

How the results depend on the processing

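Of 314 alternative values for the counts of genes past the limit and, against other retained spots, of list members, 246 stayed within 1.5 times the main count and 68 did not. Of 1998 further values (other list counts, list medians and named genes), 1342 stayed, 636 moved and 20 that were past the limit changed sign. Moved means by more than 1.5 times for counts, and by more than the counting error for named genes. For list medians it means by more than the standard error of the ratios over the list's genes. No set of sections allowed a leave-one-out run, and no paired analysis was possible because each day had 1 section. Against other retained spots, leaving muscle, mitochondrial and haemoglobin genes out of the total gave 1940 higher and 1683 lower, with 1 fibrous matrix gene higher; TMM gave 1190 and 2137, with 5 recruited, 2 MHC class II, 6 mitosis and 0 fibrous matrix genes; DESeq2 factors gave 1159 and 2177, with 5 recruited, 5 resident, 2 MHC class II, 6 mitosis and 0 fibrous matrix genes. A log2 limit of 1 gave 1519 and 710, with 3 MHC class II and 0 fibrous matrix genes, a 20 CPM filter gave 2250 and 706, and no filter gave 1720 lower.

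Against low-myofibre spots, 304 higher and 489 lower became 542 higher with the 85th percentile of the score, 558 higher with the C1q chains alone, 65 and 222 with Adgre1 and Ms4a7, 1294 and 1406 after thinning, 992 and 1333 without a filter, 148 and 259 at 20 CPM, 15 and 112 at a limit of 1, and 188 lower at the 75th percentile of the myofibre share. Over the alternatives the macrophage identity genes higher ranged from 0 (limit of 1) to 13 (C1q chains) around 9, recruited monocyte genes from 0 to 3 around 2, and resident macrophage genes from 1 (Adgre1 and Ms4a7) to 10 around 8. Pi16 (-0.37) and Myoc (-0.48) changed sign with Adgre1 and Ms4a7, Myoc also without the 28 adipocyte-rich spots (-0.015), and Myh7 at the 75th percentile (0.35).

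Against interferon spots, 579 higher and 343 lower became 941 and 523 at the 95th percentile of the score, 330 higher at the 90th percentile of interferon genes, 1156 and 679 with the choice on 1 of 2 random sets of the UMIs, 943 and 1550 after thinning, 993 and 921 without a filter, 114 and 80 at 20 CPM, and 127 and 90 at a limit of 1. The adipocyte median turned to -0.21 with Adgre1 and Ms4a7, -0.021 with the C1q chains and -1.21 without the 28 adipocyte-rich spots. Cfd, Hp and Lrg1 turned to -0.32, -0.28 and -0.29 with Adgre1 and Ms4a7, and Cfd, Hp and Scd1 to -2.45, -1.28 and -0.82 without those spots. The 28 spots were left out of the macrophage-rich group only, so the fall of the adipocyte list was built in.

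Against day 7, 2459 higher and 2405 lower became 4376 lower without a filter, 1305 and 1290 at 20 CPM, 1125 and 1539 at a limit of 1, and 198 and 8163 per UMI of the rule markers, where lipid handling (-0.23) and lysosome genes (-0.13) changed sign; the osteoclast median turned to 0.40 after thinning. Against day 1, 3670 higher and 1083 lower became 2171 and 1780 without muscle genes in the total, 2133 and 1805 with TMM, 2117 and 1818 with DESeq2 factors, 1575 and 719 at 20 CPM, 1754 and 623 at a limit of 1, and 186 and 9018 per UMI of the rule markers, where macrophage identity (-0.73), lipid handling (-0.52), lysosome (-0.67) and MHC class II (-0.70) changed sign. Thinning leaves few UMIs per gene, so its counts carry more counting error; the cause of the other shifts was not tested. One section per day limits every statement.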
